A study of Mus musculus with 35 samples.

Results

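The dual-specificity MAPK phosphatases are enzymes that switch off mitogen-activated protein kinases, and this account follows the chromatin marks at 9 of their genes, Dusp1, Dusp2, Dusp4, Dusp5, Dusp6, Dusp7, Dusp8, Dusp10 and Dusp16, in mouse bone marrow cells. The genes were taken as a named list, not by their values, and are 9 of 21887 protein-coding genes on the autosomes and sex chromosomes. The study profiled H3K27ac, H3K4me1 and H3K4me3 by ChIP-seq in 5 groups of C57BL/6 mouse cells, with 2 libraries per group and mark that the series design calls biological replicates. Of these groups 4 were lineage-negative haematopoietic stem and progenitor cells (HSPC): those of WT mice, of Npm1c mice, of Flt3-ITD mice and of mice labelled DM. The fifth was neutrophils of WT mice. The labels leave DM unexplained, and it is taken to mean that both mutations are present. HSPC were bone marrow cells left after depletion with a lineage kit and neutrophils came from a neutrophil isolation kit, so each HSPC library is a mixture of progenitor types. The sources used here do not give the design of the mutant alleles, the ages of the animals or whether animals were pooled.

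MAPK phosphatases remove phosphate from both the threonine and the tyrosine of the activation loop of ERK, JNK and p38. Several of their genes are switched on by the kinases they turn off, which makes them feedback brakes. Dusp1, Dusp2, Dusp4 and Dusp5 encode inducible enzymes of the nucleus, Dusp6 and Dusp7 encode cytoplasmic enzymes that prefer ERK, and Dusp8, Dusp10 and Dusp16 encode enzymes that prefer JNK and p38. Flt3-ITD is a mutant receptor tyrosine kinase that signals without its ligand, through ERK and STAT5 among other routes, and Npm1c is a form of nucleophosmin that is held in the cytoplasm; both are common in acute myeloid leukaemia. H3K27ac marks active promoters and enhancers, H3K4me1 marks enhancers and the flanks of promoters, and H3K4me3 marks promoters.

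The deposited values are peak positions, so the measure used throughout is the length of a gene's window that lies under peaks, in kb per library. The window is the gene span plus 10 kb on each side for H3K27ac and H3K4me1 and plus 5 kb for H3K4me3. A longer cover can come from more peaks or from wider ones, and it does not give peak height. Read depth is unknown, which sets no interval on a single value. The lists held from 21709 to 30150 peaks for H3K27ac, from 102927 to 131205 for H3K4me1 and from 30310 to 39320 for H3K4me3. For H3K27ac they covered 15.2 and 15.3 Mb in WT HSPC, 23.4 and 23.9 Mb in Npm1c, 16.6 and 18.3 Mb in Flt3-ITD, 20.3 and 13.5 Mb in DM, and 16.0 and 16.6 Mb in neutrophils. All Npm1c lists for this mark were thus longer than all others, and the 2 DM lists stood apart from each other. The labelled cell types were checked against fixed markers: in neutrophils 10 of 10 neutrophil markers had H3K27ac in both libraries, and the stem and progenitor genes Kit, Cd34, Gata2, Meis1, Flt3 and Mecom had none. WT HSPC had H3K27ac at 7 of 8 stem and progenitor markers, all but Mecom, and none at the neutrophil genes S100a8, S100a9, Ltf, Camp, Mmp9 and Retnlg. Not all markers divided the cell types. Lcn2 (1.915 and 1.888 kb) and Cxcr2 (0.234 and 0.499 kb) had H3K27ac in both WT HSPC libraries, and Ngp and Mmp8 had it in replicate 1. In neutrophils Myb (3.171 and 3.787 kb) and Erg (6.647 and 6.842 kb) kept it, beside 3.094 and 3.37 kb and 5.271 and 4.999 kb in WT HSPC.

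The promoters are shown first, before the marks at the gene starts. Of the 9 genes, 8 matched the RefSeq promoter table of GRCm38.p6, the assembly of mm10, and Dusp4 has no entry there. The 250 bases before the start were searched on both strands for the core of the cyclic AMP response element, TGACGT, the AP-1 site TGANTCA, the ETS site CCGGAA and the STAT site TTCNNNGAA, and, added after the sequences were read, for the CArG box that serum response factor binds. The core was present in 3 of 8 members, Dusp1, Dusp5 and Dusp8, and in 6.56% of 27025 promoters of the same length. The CArG box was present in Dusp5 alone among the members, in 2 copies, and in 1.40% of all promoters. None of the 8 held the AP-1, ETS or STAT letters, which 6.87%, 12.2% and 7.18% of all promoters held. A match describes the letters in this window and is no measure of binding. The 27025 promoters, 1 per gene, outnumber the 21887 protein-coding genes and so take in other genes too. They were not matched to the members for CpG content, and the same set is the background for the start sites below.

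The following are the 250 bases before the start, 5′ to 3′ on the coding strand, for the 2 inducible genes with matches and for Dusp2, which had none and lost H3K27ac at its start in neutrophils. Capitals mark the core on either strand, which overlaps itself where it forms the palindrome TGACGTCA, and in Dusp5 also the 2 adjoining CArG boxes.
Dusp1, chr17:26508473-26508722, minus strand: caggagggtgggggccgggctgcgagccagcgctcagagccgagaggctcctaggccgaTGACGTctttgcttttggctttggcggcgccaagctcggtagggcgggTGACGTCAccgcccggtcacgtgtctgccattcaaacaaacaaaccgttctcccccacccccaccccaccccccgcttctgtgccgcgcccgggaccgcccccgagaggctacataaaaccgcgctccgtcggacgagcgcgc
Dusp5, chr19:53528895-53529144, plus strand: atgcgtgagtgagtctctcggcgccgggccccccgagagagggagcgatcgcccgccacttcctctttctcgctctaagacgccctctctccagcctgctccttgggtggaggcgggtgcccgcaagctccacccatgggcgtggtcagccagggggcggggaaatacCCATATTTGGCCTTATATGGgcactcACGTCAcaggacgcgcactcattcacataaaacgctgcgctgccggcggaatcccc
Dusp2, chr2:127335909-127336158, plus strand: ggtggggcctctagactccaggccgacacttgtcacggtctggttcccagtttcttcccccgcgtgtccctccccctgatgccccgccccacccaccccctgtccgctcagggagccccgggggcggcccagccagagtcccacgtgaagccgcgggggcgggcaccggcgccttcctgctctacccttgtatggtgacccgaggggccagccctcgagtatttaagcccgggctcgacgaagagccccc

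In Dusp1 the core began 191 bases before the start and the palindrome 143 bases before it. In Dusp5 the core began 56 bases before the start and the CArG boxes 82 and 72 bases before it. Dusp8 held the palindrome in 2 copies, which began 107 and 63 bases before its start; 30 bases around each are shown, because the annotated span of this gene reaches past the start used here.
Dusp8 first copy, chr7:142095373-142095402, minus strand: gcccgctccgcTGACGTCAcctgcccccga
Dusp8 second copy, chr7:142095329-142095358, minus strand: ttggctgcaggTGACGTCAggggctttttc
All 8 promoters were rich in CpG: the observed over expected ratio ran from 0.629 in Dusp2 to 0.967 in Dusp1, beside a median of 0.378 over all promoters.

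H3K4me3 lay within 1 kb of the start in both libraries of every group for 8 of 8 members, a window set after the data were seen. Over all 27025 starts the share was 44.9% to 48.9% by group. H3K27ac was likewise present at 8 of 8 starts in each of the 4 HSPC groups, beside 33.1% to 34.9% of all starts. In neutrophils it was present at 6 of 8, beside 30.9% of all starts, and the starts without it were Dusp2 and Dusp8. Among starts with H3K27ac in both WT HSPC libraries, 9.87% had it in neither neutrophil library, and of those starts 83.7% had H3K4me3 in both neutrophil libraries, as Dusp2 and Dusp8 did.

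**Figure D1:**
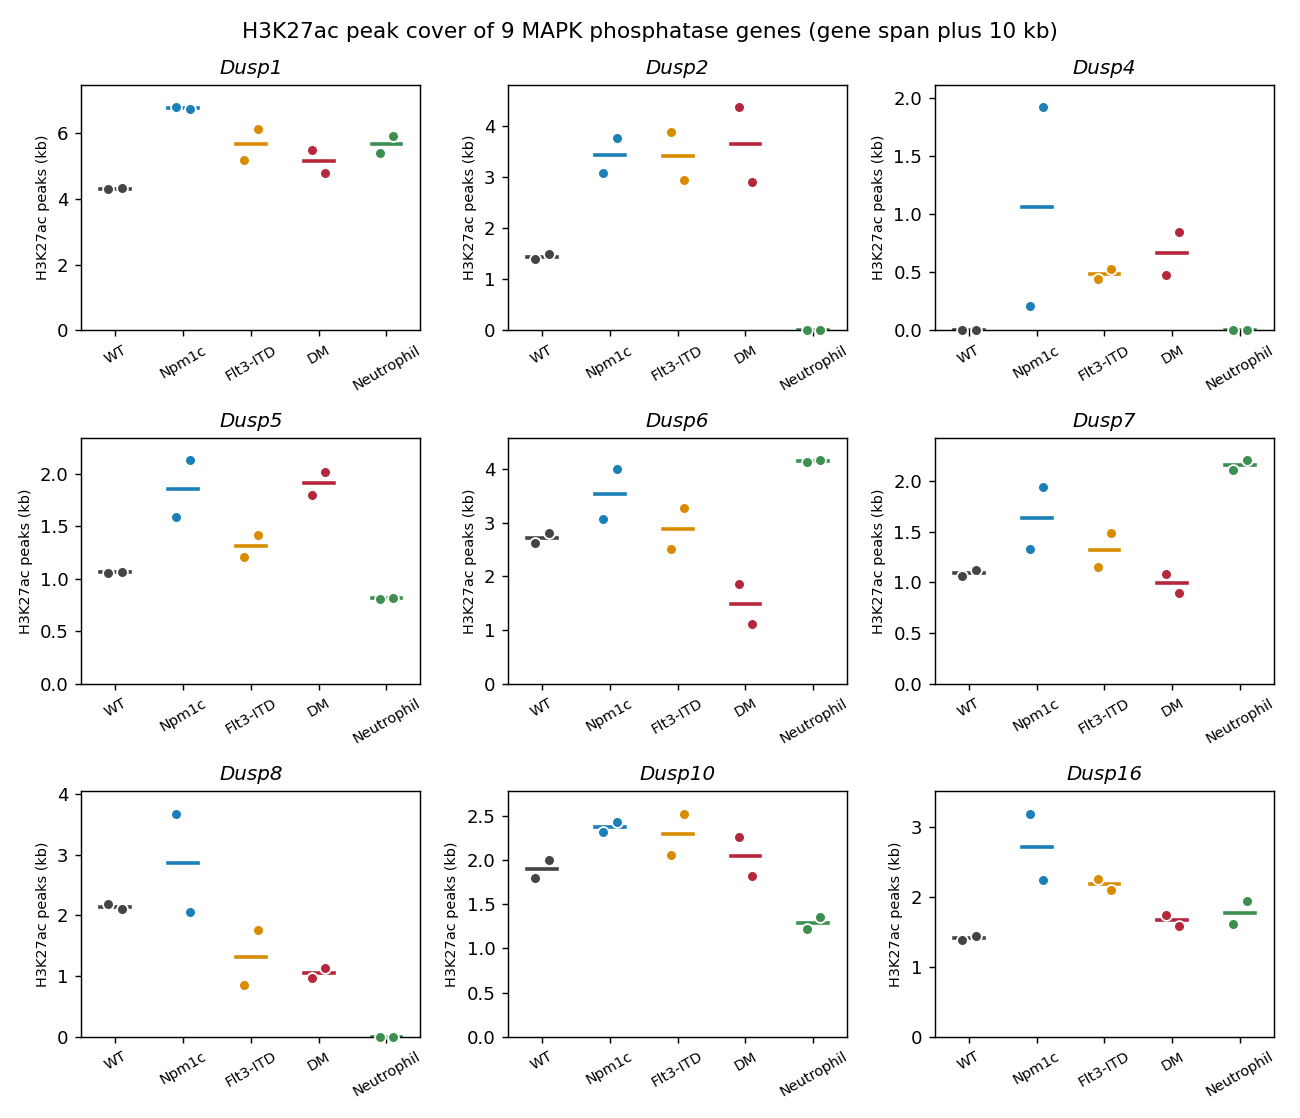
H3K27ac peak cover in kb (vertical axis, from 0) of each of the 9 genes in WT, Npm1c, Flt3-ITD and DM HSPC and in WT neutrophils; points are the 2 libraries of a group and bars their mean. Dusp2 and Dusp8 are at 0 in both neutrophil libraries, Dusp4 is above 0 only in the 6 mutant libraries, and Dusp6 is lowest in DM.

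All 9 members passed the filter, which asks for cover in 2 or more libraries of a mark, and were tested; Dusp4 entered the H3K27ac test only through its mutant libraries. The test was limma on log2(kb + 0.5), so each log2 value below is a difference on that scale, with p-values adjusted over all genes of a mark. For H3K27ac against WT HSPC, 4 of 9 members rose in Npm1c (Dusp1, Dusp2, Dusp5 and Dusp16), where 17.7% of all genes rose. In Flt3-ITD limma called 0 of 9 members and 0.103% of all genes in either direction; at an unadjusted p under 0.05 there were 3 members (Dusp1, Dusp2 and Dusp16) and 2096 of 13637 genes. In DM 2 of 9 rose, Dusp2 and Dusp5, where 6.94% of all genes rose. In neutrophils Dusp7 rose, as did 13.2% of all genes, and Dusp2, Dusp8 and Dusp10 fell, as did 23.2% of all genes.

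Against Npm1c, 4 of 9 members fell in DM (Dusp6, Dusp7, Dusp8 and Dusp16), where 30.9% of all genes fell. Against Flt3-ITD limma called 0 of 9 in DM, where 2.49% of all genes passed; at an unadjusted p under 0.05 there were 2 members, Dusp5 and Dusp6, and 2273 of 13637 genes. The median H3K27ac change of the 9 members was 0.59 in Npm1c beside 0.36 for all genes, 0.22 beside 0.12 in Flt3-ITD, 0.18 beside 0.02 in DM and 0.00 beside -0.12 in neutrophils. It was -0.37 beside -0.31 in DM against Npm1c. With each library centred on its median, which takes out the shift of all genes, none of the 4 Npm1c calls passed. For H3K4me1 the shift of all genes was -0.13 in Npm1c, -0.21 in DM, -0.16 in neutrophils and -0.16 in DM against Flt3-ITD; in the other comparisons of that mark it was under 0.1 in size. The comparisons against WT HSPC share the same WT libraries, and those of DM share the DM libraries, so their values are given side by side and not combined.

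For H3K4me1, limma called 0 of 9 members in Npm1c and 0.334% of all genes, and 0 of 9 members and 1.70% of all genes in Flt3-ITD; at an unadjusted p under 0.05 there were 2 members in each, and 1480 and 2249 of 17381 genes. In DM Dusp8 and Dusp16 fell, where 16.2% of all genes fell, and in neutrophils Dusp8, Dusp10 and Dusp16 fell, where 18.6% of all genes fell. Dusp8 and Dusp16 also fell in DM against Npm1c, where 12.1% of all genes fell; against Flt3-ITD 0 of 9 passed in DM (3 at an unadjusted p under 0.05, beside 4201 of 17381 genes) and 9.33% of all genes passed. For H3K4me3, 0 of 9 members passed in Npm1c (1 at an unadjusted p under 0.05, beside 827 of 16138 genes), where 1.37% of all genes passed. Dusp5 rose for this mark in Flt3-ITD, where 2.27% of all genes rose, in DM, where 4.47% rose, and in DM against Npm1c, where 3.80% rose. Dusp1 rose in neutrophils, where 6.72% of all genes rose, and in DM against Flt3-ITD 0 of 9 members (1 at an unadjusted p under 0.05, beside 1857 of 16138 genes) and 5.66% of all genes passed. The H3K4me1 falls were at Dusp8, Dusp10 and Dusp16; no member rose for that mark, except Dusp6 in neutrophils when libraries were centred (0.69; adjusted p = 0.00666).

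**Figure D2:**
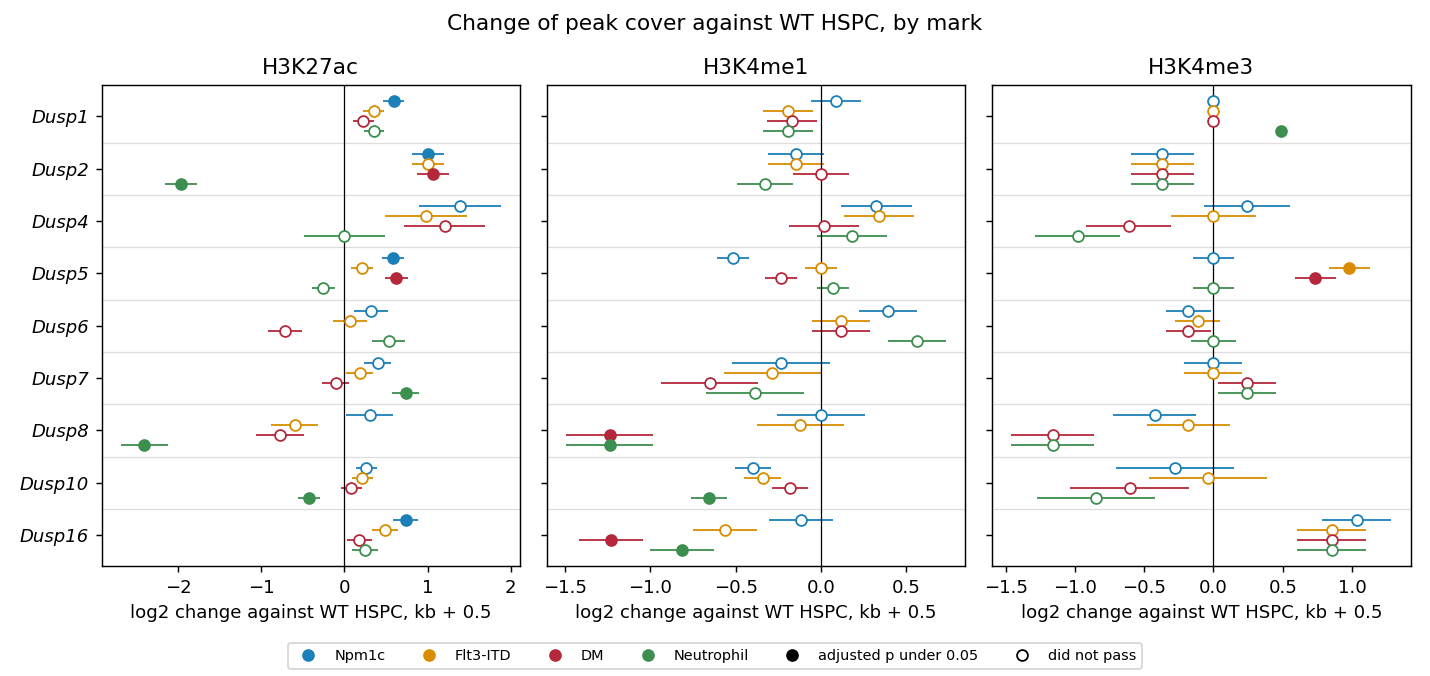
Change of peak cover against WT HSPC on the log2(kb + 0.5) scale (horizontal axis) for each gene and mark, with bars of 1 standard error; filled points passed an adjusted p of 0.05 and open points did not. The H3K27ac points of Dusp2 and Dusp8 in neutrophils lie farthest to the left, and the filled H3K4me1 points are those of Dusp8, Dusp10 and Dusp16.

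Among the inducible nuclear enzymes, Dusp1, which acts on p38, JNK and ERK and is an immediate early gene, had the longest H3K27ac cover of the 9. It was 4.29 and 4.31 kb in WT HSPC, 6.78 and 6.72 kb in Npm1c, 5.18 and 6.13 kb in Flt3-ITD, 5.49 and 4.78 kb in DM, and 5.40 and 5.90 kb in neutrophils. Both WT libraries were below all 8 others. The rise in Npm1c was 0.59 ± 0.12 (SE; adjusted p = 0.0269), and Flt3-ITD (0.35; adjusted p = 0.239), DM (0.23; adjusted p = 0.297) and neutrophils (0.36; adjusted p = 0.0593) did not pass. The Npm1c call did not pass without either WT library, either Npm1c library or either neutrophil library (adjusted p from 0.0539 to 0.165), with the gene span alone (0.29; adjusted p = 0.110) or with centred libraries (0.20; adjusted p = 0.292), and its sign turned when random peaks were dropped to equal list lengths (-0.17). With centred libraries the neutrophil rise passed (0.49; adjusted p = 0.00349).

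The added cover at Dusp1 was spread over several regions. The region at the start went from 1709 and 1699 bp in WT HSPC to 2252 and 2623 bp in Npm1c, and a region 10.9 kb past the start from 503 and 504 bp to 743 and 802 bp in Npm1c and 1477 and 1293 bp in DM. A region 4.8 kb past the start (chr17:26503339-26503963, downstream of the gene) had no peak in either WT library and between 451 and 616 bp in all 6 mutant libraries, with 0 and 206 bp in neutrophils. A region 6.1 kb before the start (chr17:26513618-26515542) went the other way. It held 1408 and 1461 bp in WT HSPC, 1925 and 1327 bp in Npm1c, 285 and 847 bp in Flt3-ITD, none in either DM library, and 457 and 392 bp in neutrophils. DM thus gained the downstream region and lacked the upstream one, which both single mutants kept. A further region 3.8 kb before the start had H3K27ac in neutrophils only (299 and 451 bp), and an H3K4me3 peak 4.3 kb before the start was likewise present in both neutrophil libraries and in no HSPC library. That peak made the H3K4me3 cover 3 kb in both neutrophil libraries and 2 kb in all 8 HSPC libraries (0.49; adjusted p = 1.3e-11). The p rests on groups with no spread: with the spread held to at least 1 peak it was 0.101, and with centred libraries it was 0.125.

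**Figure D3:**
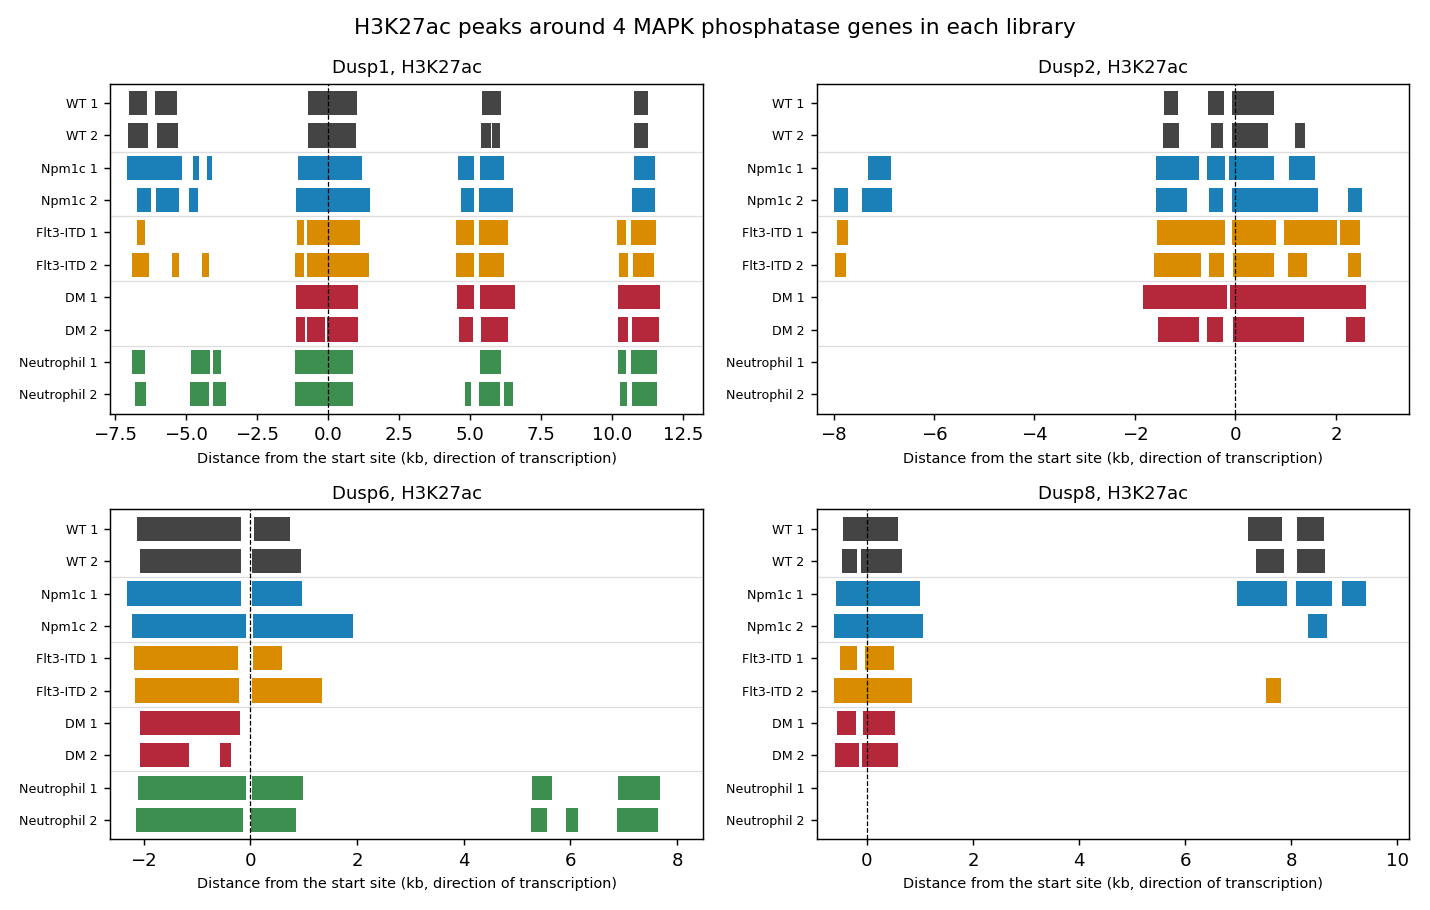
H3K27ac peaks (bars) by distance from the start site in kb (horizontal axis, in the direction of transcription; dashed line, start) at Dusp1, Dusp2, Dusp6 and Dusp8, with 1 row per library. Neutrophil rows are empty at Dusp2 and Dusp8, and the DM rows lack the bar just past the start of Dusp6 and the bars before -5 kb at Dusp1.

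Dusp2, an ERK and p38 phosphatase known from activated blood cells, was the member with the widest range of H3K27ac. Its cover was 1.40 and 1.49 kb in WT HSPC, 3.09 and 3.77 kb in Npm1c, 3.90 and 2.95 kb in Flt3-ITD, 4.37 and 2.92 kb in DM, and 0 kb in both neutrophil libraries. All 6 mutant libraries were above both WT libraries and the mutant groups overlapped each other. The changes were close in size, 1.01 ± 0.19 in Npm1c (adjusted p = 0.0223), 1.00 ± 0.19 in Flt3-ITD (adjusted p = 0.0959) and 1.07 ± 0.19 in DM (adjusted p = 0.0148). DM against Npm1c was 0.06 ± 0.19 (adjusted p = 0.832) and against Flt3-ITD 0.07 ± 0.19 (adjusted p = 0.914). With centred libraries the changes were 0.61 in Npm1c (adjusted p = 0.139), 0.86 in Flt3-ITD (adjusted p = 0.0456) and 1.03 in DM (adjusted p = 0.00314), so the call moved from Npm1c to Flt3-ITD and that of DM remained. Both the Npm1c and the DM call were lost without either WT or either neutrophil library (adjusted p from 0.0563 to 0.147), the Npm1c call also without Npm1c replicate 2 (0.0855). With the gene span alone both missed the threshold (0.58 and 0.78; adjusted p = 0.134 and 0.0787), and with random peaks dropped the Npm1c change was -0.0021 and that of DM 1.07 (adjusted p = 0.0830). The window also holds part of Astl, and cover cannot be assigned to 1 of the 2 genes.

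The neutrophil fall of Dusp2 passed with an adjusted p of 0.000477 and under 21 of 21 alternatives; with no peak in either library no fold is given. The H3K27ac regions around the start and 1.0 kb before it (chr2:127334315-127335983), present in all 8 HSPC libraries, were both absent. H3K4me3 stayed at 1 kb in both neutrophil libraries, equal to that in the 6 mutant libraries and WT replicate 1, and H3K4me1 was 4 and 3 kb in neutrophils against 5 and 4 kb in WT HSPC (-0.33; adjusted p = 0.216). The start thus had H3K4me3 without H3K27ac in neutrophils. A region 7.1 kb before the start had H3K27ac in both Npm1c libraries (458 and 596 bp) and in no other.

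Dusp4, a nuclear ERK and JNK phosphatase, had no H3K27ac peak in WT HSPC or neutrophils. Its cover was 0.208 and 1.92 kb in Npm1c, 0.444 and 0.532 kb in Flt3-ITD, and 0.482 and 0.851 kb in DM. All 6 mutant libraries were above 0, but the 2 Npm1c libraries were far apart and no comparison passed (adjusted p = 0.0797, 0.401 and 0.160). All 6 had a peak in a region beside the gene span (chr8:34806476-34807151), which covered 208 to 651 bp. In Npm1c replicate 2 most of the cover lay elsewhere, with 923 bp inside the span and 408 bp in a further region beside it, where Flt3-ITD replicate 2 (303 bp) and DM replicate 2 (200 bp) also had a peak. Its H3K4me3 was 2 and 3 kb in WT HSPC, 3 and 3 kb in Npm1c, 2 and 3 kb in Flt3-ITD, 1 and 2 kb in DM and 1 kb in both neutrophil libraries, so H3K4me3 was present at this gene where H3K27ac was not. The H3K27ac window of Dusp4 reaches Tnks.

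Dusp5, a nuclear phosphatase specific for ERK, had H3K27ac cover of 1.06 and 1.07 kb in WT HSPC, 1.59 and 2.13 kb in Npm1c, 1.21 and 1.42 kb in Flt3-ITD, 1.80 and 2.02 kb in DM, and 0.810 and 0.814 kb in neutrophils. Neutrophils were lowest, then WT HSPC, and every mutant library was above both. The rise was 0.59 ± 0.13 (SE) in Npm1c (adjusted p = 0.0312) and 0.63 ± 0.13 in DM (adjusted p = 0.0248), and Flt3-ITD did not pass (0.21; adjusted p = 0.502). A region 7.9 kb before the start had H3K27ac in both Npm1c libraries alone (496 and 630 bp), and with the gene span only the Npm1c change was 0.01 (adjusted p = 1.00), with 5 kb added 0.19 (adjusted p = 0.272). Both calls were lost without either WT or either neutrophil library (adjusted p from 0.0680 to 0.168), that of Npm1c also without Npm1c replicate 2 (0.0958) and that of DM without DM replicate 2 (0.0587). With centred libraries the DM call held (0.59; adjusted p = 0.0270) and the Npm1c call did not (0.19; adjusted p = 0.529), and with random peaks dropped the DM change was -0.02.

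H3K4me3 at Dusp5 separated the groups with Flt3-ITD from the others. The cover was 1 kb in both WT, both Npm1c and both neutrophil libraries, 2 and 3 kb in Flt3-ITD and 2 kb in both DM libraries. The rise was 0.98 ± 0.15 in Flt3-ITD (adjusted p = 0.0344), 0.74 ± 0.15 in DM (adjusted p = 0.0433) and 0.74 ± 0.15 in DM against Npm1c (adjusted p = 0.0431). The added peak was inside the gene, 7.9 kb past the start (chr19:53536294-53537838), and present in all 4 libraries with Flt3-ITD and in none of the other 6. These calls rest on steps of 1 peak: with centred libraries the adjusted p was 0.595, 0.402 and 0.113, and leaving out any 1 WT, Npm1c, DM or neutrophil library put them between 0.0694 and 0.173.

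The position of the H3K4me3 peak at the start of Dusp5 also differed, a feature picked after the maps were seen and given without a test. Its centre was 0.018 and 0.060 kb past the start in WT HSPC, -0.030 and -0.192 kb in Npm1c, and -0.005 and 0.017 kb in neutrophils. It was 0.514 and 0.456 kb in Flt3-ITD and 0.480 and 0.519 kb in DM, beyond all 6 libraries of the other groups. At Dusp16 the centre was near the start in WT HSPC (-0.030 and 0.032 kb) and neutrophils (-0.051 and -0.083 kb) and between 0.488 and 0.542 kb in all 6 mutant libraries. At Dusp1 it stayed between 0.458 and 0.644 kb in all 10 libraries, and at Dusp8 between 0.001 and 0.177 kb. At Dusp7 it was 0.243 and 0.228 kb in WT HSPC, 0.186 and 0.717 kb in Npm1c and 0.520 to 0.648 kb in the other 6 libraries, and at Dusp6 it was 0.915 and 0.966 kb in WT HSPC and 0.430 to 0.747 kb in the other 8. HOMER peaks have a fixed width of 1000 bp, so such a shift moves the peak without changing the cover.

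**Figure D4:**
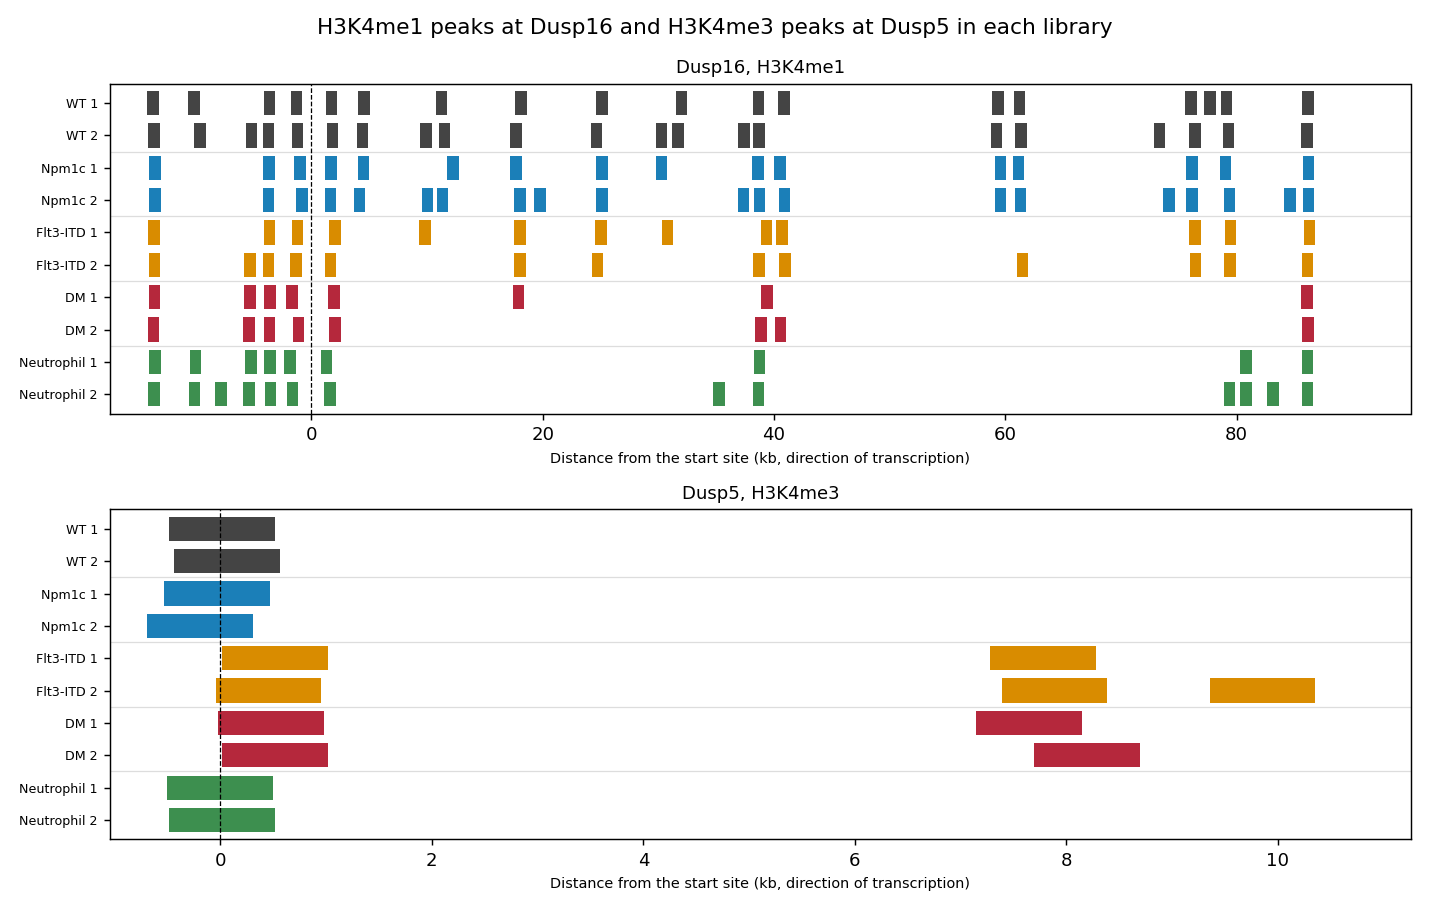
H3K4me1 peaks at Dusp16 (upper panel) and H3K4me3 peaks at Dusp5 (lower panel) by distance from the start in kb (horizontal axis; dashed line, start), with 1 row per library. Between the bars at 1.7 and 79.3 kb past the Dusp16 start the DM rows have bars at 17.9, 39.0 and 40.7 kb only and the neutrophil rows at 35.2 and 39.0 kb only, and the Dusp5 bars near 8 kb are in the Flt3-ITD and DM rows.

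Dusp6, the cytoplasmic ERK phosphatase that is a standard readout of ERK activity, had its lowest H3K27ac cover in DM. It was 2.63 and 2.81 kb in WT HSPC, 3.07 and 4.0 kb in Npm1c, 2.51 and 3.27 kb in Flt3-ITD, 1.87 and 1.12 kb in DM, and 4.14 and 4.17 kb in neutrophils. Both DM libraries were below all 8 others and both neutrophil libraries above them. DM against Npm1c fell by 1.03 ± 0.20 (adjusted p = 0.00906), a call lost when random peaks were dropped (adjusted p = 0.102) and without Npm1c replicate 2 (0.0513) and kept in 19 of 21 alternatives. DM against WT was -0.72 ± 0.20 (adjusted p = 0.0596) and against Flt3-ITD -0.78 ± 0.20 (adjusted p = 0.103). With centred libraries both passed, at -0.75 (adjusted p = 0.00364) and -0.68 (adjusted p = 0.0182); the WT comparison passed in 4 of 21 alternatives, whose adjusted p ran from 0.00364 to 0.338.

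At Dusp6 a region just past the start (chr10:99263241-99265151, inside the gene) accounted for much of the difference in length. It held 677 and 914 bp in WT HSPC, 935 and 1872 bp in Npm1c, 551 and 1314 bp in Flt3-ITD, 959 and 845 bp in neutrophils, and no peak in either DM library. Regions 5.5 and 7.3 kb past the start had H3K27ac in both neutrophil libraries and in no HSPC library, and an H3K4me1 region 7.9 kb past the start was also present in neutrophils only. Neutrophil H3K27ac did not pass (0.53; adjusted p = 0.0777), nor did H3K4me1, at 9 kb in both neutrophil libraries against 5 and 7 kb in WT HSPC (0.56; adjusted p = 0.0613); with centred libraries both passed (adjusted p = 0.00260 and 0.00666). H3K4me3 at Dusp6 was 3 to 4 kb in every library. DM thus kept H3K4me3 at this gene while its H3K27ac cover was the shortest.

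Dusp7, the other cytoplasmic ERK phosphatase, had H3K27ac cover of 1.07 and 1.13 kb in WT HSPC, 1.33 and 1.94 kb in Npm1c, 1.16 and 1.49 kb in Flt3-ITD, 1.09 and 0.898 kb in DM, and 2.12 and 2.21 kb in neutrophils. Both neutrophil libraries were above all 8 HSPC libraries, with a rise of 0.74 ± 0.16 (adjusted p = 0.0110). That call was lost without either WT or either neutrophil library (adjusted p from 0.0566 to 0.0797). Regions 3.1 and 4.1 kb past the start, inside the gene, had H3K27ac in both neutrophil libraries (492 and 438 bp, 983 and 802 bp) and in no HSPC library. DM against Npm1c fell by 0.51 ± 0.16 (adjusted p = 0.0477), a call kept in 7 of 21 alternatives and lost with centred libraries (-0.15; adjusted p = 0.411) and without 1 of either WT, either DM or either neutrophil library or Npm1c replicate 2 (adjusted p from 0.0502 to 0.201). An H3K4me1 region 1.3 kb past the start was present in both WT and both Npm1c libraries and in none of the other 6.

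Dusp8, a phosphatase for JNK and p38, had the largest loss of H3K27ac on the log2 scale. Its H3K27ac cover was 2.18 and 2.11 kb in WT HSPC, 3.68 and 2.05 kb in Npm1c, 0.851 and 1.76 kb in Flt3-ITD, 0.961 and 1.13 kb in DM, and 0 kb in both neutrophil libraries. All Flt3-ITD and DM libraries were below both WT libraries. The neutrophil fall passed with an adjusted p of 0.00103 and under 21 of 21 alternatives, with no fold given against 0. DM against Npm1c fell by 1.08 ± 0.29 (adjusted p = 0.0257), and not past the threshold without Npm1c replicate 1, either DM or either neutrophil library (adjusted p from 0.0650 to 0.125) or with centred libraries (-0.72; adjusted p = 0.0974). Against WT, DM (-0.78; adjusted p = 0.126) and Flt3-ITD (-0.60; adjusted p = 0.379) did not pass.

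The cover that differed at Dusp8 lay inside the gene. A region 8.4 kb past the start (chr7:142086505-142087198) held 499, 523, 694 and 374 bp in the WT and Npm1c libraries and no peak in Flt3-ITD, DM or neutrophils. The region at the start itself (chr7:142094226-142095911), which holds the palindromes shown above, had 851 to 1675 bp in all 8 HSPC libraries and none in neutrophils. H3K4me3 was 2 and 4 kb in WT HSPC, 2 kb in both Npm1c libraries, 2 and 3 kb in Flt3-ITD, and 1 kb in both DM and both neutrophil libraries, where the peak at the start was the one left; the fall in DM passed with centred libraries alone (-1.16; adjusted p = 0.0484). H3K4me1 was 6 and 7 kb in WT HSPC, 6 and 7 kb in Npm1c, 7 and 5 kb in Flt3-ITD, 3 and 2 kb in DM, and 3 and 2 kb in neutrophils. It fell by 1.24 ± 0.26 in DM against WT (adjusted p = 0.0241), in DM against Npm1c (adjusted p = 0.0271) and in neutrophils (adjusted p = 0.0196), and an H3K4me1 region 9.0 kb past the start was present in all 6 libraries of WT, Npm1c and Flt3-ITD and in none of DM or neutrophils. These H3K4me1 calls were lost without either WT library (adjusted p from 0.0522 to 0.125), without DM replicate 2 (0.102 and 0.117), without neutrophil replicate 2 (0.0912) and, against Npm1c, without either Npm1c library (0.0742 and 0.0823).

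Dusp10, a JNK and p38 phosphatase known for limiting cytokine output of immune cells, had H3K27ac cover of 1.80 and 1.996 kb in WT HSPC, 2.32 and 2.43 kb in Npm1c, 2.06 and 2.53 kb in Flt3-ITD, 2.26 and 1.82 kb in DM, and 1.22 and 1.35 kb in neutrophils. The HSPC groups overlapped or lay close, and neutrophils were below all 8 HSPC libraries (-0.42 ± 0.13; adjusted p = 0.0347). That call passed in 11 of 21 alternatives and was lost without either WT, either neutrophil library or Npm1c replicate 1 (adjusted p from 0.0501 to 0.185). H3K4me1 was 15 and 17 kb in WT HSPC, 12 kb in both Npm1c libraries, 12 and 13 kb in Flt3-ITD, 14 kb in both DM libraries and 9 and 11 kb in neutrophils. The neutrophil fall of 0.66 ± 0.11 (adjusted p = 0.00810) was kept in 18 of 20 alternatives and lost without WT replicate 2 (0.0501) and when random peaks were dropped (0.119). An H3K4me1 region 9.2 kb before the start was present in both DM libraries and in no other. The window also holds 1700056E22Rik.

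Dusp16, a JNK and p38 phosphatase, is the longest gene of the 9, with a span of 91.6 kb, and it had the longest H3K4me1 cover in WT HSPC. The start used for distances is the first RefSeq start, which lies inside that span. The cover was 18 and 21 kb in WT HSPC, 16 and 20 kb in Npm1c, 13 kb in both Flt3-ITD libraries, 8 kb in both DM libraries, and 9 and 13 kb in neutrophils. DM was below all other libraries, with a fall of 1.23 ± 0.19 against WT (adjusted p = 0.00875), lost without WT replicate 2 (0.0587), and of 1.11 ± 0.19 against Npm1c (adjusted p = 0.0140), lost without either DM library (0.0698 and 0.0661). Neutrophils fell by 0.82 ± 0.19 (adjusted p = 0.0272), a call lost without either WT library, either Flt3-ITD library, either DM library or neutrophil replicate 1 (adjusted p from 0.0534 to 0.138). Inside the gene, regions 4.3, 11.8 and 59.4 kb past the start had H3K4me1 in all 4 WT and Npm1c libraries and in none of Flt3-ITD, DM or neutrophils, and regions 24.9 and 76.2 kb past it had H3K4me1 in all 6 libraries of WT, Npm1c and Flt3-ITD and in none of DM or neutrophils.

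The other marks at Dusp16 did not follow its H3K4me1. H3K27ac was 1.38 and 1.44 kb in WT HSPC, 3.20 and 2.25 kb in Npm1c, 2.26 and 2.103 kb in Flt3-ITD, 1.75 and 1.58 kb in DM, and 1.61 and 1.95 kb in neutrophils, so both WT libraries were lowest. It rose in Npm1c by 0.74 ± 0.15 (adjusted p = 0.0263) and in DM fell against Npm1c by 0.56 ± 0.15 (adjusted p = 0.0282). Neither passed with centred libraries (adjusted p = 0.321 and 0.413), without either WT library, without either neutrophil library or without Npm1c replicate 1 (adjusted p from 0.0506 to 0.160), and the fall also not without DM replicate 2 (0.111). Changes in Flt3-ITD (0.49; adjusted p = 0.199) and DM (0.18; adjusted p = 0.508) against WT did not pass. H3K4me3 was 2 and 1 kb in WT HSPC, 4 and 3 kb in Npm1c and 3 kb in the other 6 libraries; a peak 3.8 kb before the start was absent from both WT HSPC libraries and present in all 8 others, which did not pass as a change of the gene except in neutrophils with centred libraries (1.22; adjusted p = 0.0160). The window also holds part of Borcs5.

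Markers of other blood cells moved with several of these values. Summed over 6 erythroid markers, H3K27ac was 15.6 to 16.6 kb in WT HSPC, 18.0 to 27.7 kb in Npm1c, 7.43 to 11.7 kb in Flt3-ITD, 2.39 to 3.83 kb in DM and 1.75 to 1.82 kb in neutrophils, with Gata1 at 0 in DM and neutrophils, and H3K4me1 was 44.1 to 49.0 kb in WT HSPC, 28.0 to 30.0 kb in DM and 15.0 to 16.0 kb in neutrophils. Over 4 megakaryocyte markers H3K4me1 was 41.4 to 41.9 kb in WT HSPC, 25.4 to 26.3 kb in DM and 20.1 to 20.8 kb in neutrophils. Over 6 monocyte and macrophage markers H3K27ac was 1.45 to 2.17 kb in WT HSPC and 5.13 to 13.2 kb in DM, with Adgre1 at 0 in both groups. Over 8 stem and progenitor markers H3K27ac was 12.5 kb in both WT HSPC libraries, 40.8 to 51.1 kb in Npm1c, 27.7 to 30.4 kb in Flt3-ITD, 20.7 to 37.2 kb in DM and 9.82 to 10.6 kb in neutrophils. The higher mutant sums go with the higher mutant values of Dusp1, Dusp2, Dusp4, Dusp5 and Dusp16. In DM the higher sum came from Flt3 (11.836 and 6.326 kb, from 0.942 and 0.718 kb in WT HSPC), Erg, Meis1 and Cd34. Kit (0.353 and 0.578 kb, from 1.157 and 1.212 kb) and Myb (2.383 and 1.552 kb, from 3.094 and 3.37 kb) were lower in DM. Gata2 and Mecom had no H3K27ac there, and Gata2 had 1.506 and 1.263 kb in WT HSPC. Over 4 B-lymphoid markers H3K4me1 was 16.9 to 17.3 kb in WT HSPC and 26.9 to 27.8 kb in DM. The low DM and neutrophil values of Dusp8 and of H3K4me1 at Dusp16 go with the erythroid and megakaryocyte sums, as does the low H3K27ac of Dusp6 in DM. In neutrophils, where the erythroid H3K27ac sum was lowest, Dusp6 went the other way (4.135 and 4.165 kb). In Flt3-ITD, where that sum was also below WT HSPC, Dusp6 was 2.509 and 3.269 kb, beside 2.626 and 2.811 kb in WT HSPC. H3K4me1 at Dusp16 was 13 kb in both Flt3-ITD libraries, beside 18 and 21 kb in WT HSPC (limma adjusted p = 0.266). The H3K4me1 sums of Flt3-ITD were 39.0 to 51.3 kb for erythroid and 36.3 to 40.8 kb for megakaryocyte markers. The match at Dusp16 thus did not extend to Flt3-ITD, where H3K4me1 at Dusp8 was 7 and 5 kb, beside 6 and 7 kb in WT HSPC. The part of any of these markers in the results was not tested, and in bulk cells a smaller share of a cell type and less mark per cell cannot be told apart.

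Counted as separate regions, the 9 windows held 40 H3K27ac regions, 106 H3K4me1 regions and 35 H3K4me3 regions, of which 10, 36 and 14 were present in all 10 libraries. The genome-wide share of regions present in all 10 libraries was not counted, so whether these counts are usual is not known. A region was gained when both libraries of a group and neither WT HSPC library had it, and lost in the reverse case. Of the 40 H3K27ac regions, Npm1c gained 5 (12.5%) and lost 0, where it gained 7.90% and lost 0.196% of 48381 regions genome-wide. Flt3-ITD gained 4 and lost 1, beside 4.43% and 2.42% of all regions. DM gained 2 and lost 4 (10%), beside 7.53% and 6.55%. Neutrophils gained 7 (17.5%) and lost 5, beside 16.3% and 9.22%.

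More H3K4me1 regions of the members were lost than gained in Flt3-ITD, DM and neutrophils. Of 106, Npm1c lost 3, Flt3-ITD 7, DM 15 (14.2%) and neutrophils 18, beside 2.54%, 4.34%, 12.4% and 15.1% of 199848 regions genome-wide. Gains were 3, 1, 4 and 2 (2.83%, 0.943%, 3.77% and 1.89%), beside 0.943%, 2.59%, 5.40% and 8.70% of all regions. No test was run on single regions.

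The interaction asks whether Flt3-ITD changes a gene differently when Npm1c is present. For H3K27ac it fell at 3 of 9 members, where it fell at 17.5% of all genes: -0.72 ± 0.18 at Dusp1 (adjusted p = 0.0358), -1.10 ± 0.29 at Dusp6 (adjusted p = 0.0420) and -1.05 ± 0.21 at Dusp16 (adjusted p = 0.0242). The median of the 9 was -0.72 beside -0.46 for all genes, and with centred libraries none of the 3 passed (adjusted p = 0.348, 0.0939 and 0.237). At Dusp2 it was -0.94 ± 0.27 (adjusted p = 0.0517), with means of 3.43, 3.42 and 3.65 kb in Npm1c, Flt3-ITD and DM. Limma called 0 of 9 members for H3K4me1 and for H3K4me3 (2 and 1 at an unadjusted p under 0.05, beside 2733 of 17381 and 1863 of 16138 genes), where 3.35% and 5.74% of all genes passed.

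The wider pathway was read from lists of 30 MAPK cascade genes, 14 other brakes on the pathway, 14 genes of ERK output and 16 other dual-specificity phosphatases. In Npm1c 7 of 28 tested cascade genes, 5 of 12 brakes, 4 of 14 output genes and 4 of 13 other phosphatases rose for H3K27ac and none fell, where 17.7% of all genes rose, with medians of 0.41, 0.59, 0.52 and 0.48 beside 0.36 for all genes. In Flt3-ITD none of the 4 lists had a call in either direction, where 0.103% of all genes passed. In DM 3 cascade genes, 3 brakes, 2 output genes and 4 other phosphatases rose, and 1, 2, 0 and 1 fell, where 947 and 823 of 13637 genes did. In DM against Npm1c 7 of 28 cascade genes, 6 of 12 brakes, 2 of 14 output genes and 3 of 13 other phosphatases fell, and 2, 1, 0 and 2 rose, where 30.9% of all genes fell and 411 of 13637 rose.

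Single genes of these lists moved in both directions. Overlap with other genes was checked for the 9 members only, so cover in a list gene's window cannot be assigned to that gene alone. The alternative settings were not read for these single genes. Spry2, a feedback inhibitor of receptor signalling to ERK, had H3K27ac cover of 2.06 and 2.44 kb in WT HSPC, 3.26 and 4.13 kb in Npm1c, 2.40 and 2.88 kb in Flt3-ITD, 0.690 and 0 kb in DM, and 0.940 and 0.565 kb in neutrophils. Its DM and neutrophil libraries were below all others, and in DM it fell against WT (-1.83 ± 0.37; adjusted p = 0.0209), Npm1c (-2.43; adjusted p = 0.00384) and Flt3-ITD (-2.02; adjusted p = 0.0389). Other brakes rose in DM: Nf1, which turns off RAS, by 1.37 ± 0.17 (adjusted p = 0.00429) and Spred3 by 1.38 ± 0.17 (adjusted p = 0.00450). Mapk9, which encodes a JNK kinase, fell in DM (-1.26 ± 0.20; adjusted p = 0.0103) and in neutrophils (-1.58 ± 0.20; adjusted p = 0.00133), the groups in which Dusp8 and Dusp16 lost H3K4me1. Fos, an immediate early gene, rose in Npm1c (0.86 ± 0.13; adjusted p = 0.0167) and DM (0.93 ± 0.13; adjusted p = 0.00608). Dusp3, an atypical phosphatase outside the 9, had the largest DM rise of its list, from 0.362 and 0.414 kb in WT HSPC to 3.34 and 2.76 kb (1.99 ± 0.16; adjusted p = 0.00106). Rasa2, which turns off RAS, rose in neutrophils from 1.39 and 1.16 kb to 5.35 and 5.87 kb (1.79 ± 0.12; adjusted p = 8.86e-05).

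Likeness was measured as the root mean square difference of log2(kb + 0.5) over the 10 H3K27ac libraries after centring each gene on its mean, over genes on other chromosomes. Nearest to Dusp2 were Ctsg, which encodes the granule protease cathepsin G (0.236), and Ccnd2 (0.244), where Dusp2 itself varied by 1.17 around its mean. Nearest to Dusp8, which varied by 0.968, were Hdhd5 (0.146) and Zc3h12c (0.166). Nearest to Dusp6, which varied by 0.452, was Vps37c (0.108). For Dusp1 they were Nupr1l (0.0595) and Gm16286 (0.0733), for Dusp5 Cntrob and Trappc1 (0.101 each), for Dusp7 Esrra (0.0695) and Lmnb1 (0.0939), for Dusp10 Srsf3 (0.0567) and Rfng (0.0605), and for Dusp16 Eea1 (0.0826) and Laptm4a (0.103). Cntrob and Trappc1 had the same value, and whether the windows of the nearest genes overlap was not checked. These likenesses describe 10 libraries and carry no test.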

How the data were processed

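The authors profiled H3K27ac, H3K4me1 and H3K4me3 in 30 libraries, 2 per group and mark. Per the submitters' processing notes the build was mm10 and the tools were Bowtie2 2.1.0, Picard, HOMER and MACS2; H3K4me1 and H3K4me3 files are named as HOMER peaks and H3K27ac files as MACS2 peaks. The deposited files hold peak coordinates only (3 columns), with no count, score or signal, so depth per library is unknown. The 5 input samples were not analysed here. Gene spans and promoters came from RefSeq tables of GRCm38.p6.

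Covered bp per gene window were summed for each library and fitted as log2(bp + 500) with limma 3.58.1 in R 4.3.3 (trend), all 10 libraries of a mark together, genes covered in at least 2 libraries, without scaling or replicate block, at a Benjamini-Hochberg adjusted p of 0.05 per mark and comparison. The code was tested on simulated data for DM against WT HSPC. A log2 change of 1 was recovered in 54% of changed genes for H3K27ac, 41% for H3K4me1 and 57% for H3K4me3. A change of 2 was recovered in 90%, 83% and 84%. A change that did not pass can thus be a missed one. Overlaps used Python 3.11.15 and NumPy 2.4.6. Alternatives were other pseudocounts, filters, windows, centring, list lengths, spread estimates, a replicate block and leaving out each library. Printed genes are the 9 members, list genes among the 3 largest called changes in a direction for H3K27ac (not all are printed) and the 2 nearest genes to each called member. Some genes that this rule or the marker lists take in are not reported here. The members, lists and tests were chosen with earlier results of these data known.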

Additional observations from a re-analysis of the deposited data

Results flagged for a closer look

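For H3K27ac the effect of Flt3-ITD differed between cells with and without Npm1c, by limma's interaction term, at Dusp1 (-0.72 on the log2 scale), at Dusp6 (-1.10) and at Dusp16 (-1.05). The same term fell at 17.5% of all genes, with a median of -0.46 over all genes. At each of the 3 genes Flt3-ITD was at or above WT HSPC in mean cover and DM was below Npm1c: the means ± SD of 2 libraries in WT, Npm1c, Flt3-ITD and DM were 4.30 ± 0.012, 6.75 ± 0.039, 5.65 ± 0.674 and 5.13 ± 0.501 kb at Dusp1, 2.72 ± 0.131, 3.53 ± 0.660, 2.89 ± 0.537 and 1.49 ± 0.528 kb at Dusp6, and 1.41 ± 0.0438, 2.72 ± 0.672, 2.18 ± 0.114 and 1.67 ± 0.118 kb at Dusp16. The Npm1c lists were the longest and DM replicate 2 the shortest for this mark. With each library centred on its median, none of the 3 calls passed (adjusted p = 0.348, 0.0939 and 0.237). The part of list length in these values was not tested beyond this and the alternatives given below. The calls were kept in 9, 9 and 13 of 21 alternatives. Each was lost without either WT or either neutrophil library and without Flt3-ITD replicate 2 (adjusted p from 0.0541 to 0.137), those of Dusp1 and Dusp6 also without either Npm1c library (0.0578 to 0.105) and those of Dusp6 and Dusp16 without DM replicate 2 (0.0756 and 0.0570).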

How the results depend on the processing

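Over 6 comparisons the members had 14 calls for H3K27ac, 7 for H3K4me1 and 4 for H3K4me3. The H3K27ac total became 6 with no filter and 2 with random peaks dropped to equal list lengths, and 3 to 18 when 1 library was left out. It was 4 without either WT library and 3 without either neutrophil library. The H3K4me1 total became 4 with random peaks dropped and 2 to 8 with 1 library left out, the low values being 3 and 2 without WT replicate 1 and 2 and 3 without DM replicate 2. The H3K4me3 total became 1 with a pseudocount of 2000 bp, 1 with no filter, 2 with centred libraries, 7 with the gene span only, 2 with 10 kb added, 0 with random peaks dropped and 14 with a spread of at least 1 peak. It was 1 to 12 with 1 library left out: 12 without WT replicate 1, 2 without WT replicate 2 and 1 without any 1 Npm1c, DM or neutrophil library. Regions gained or lost in the 4 groups summed to 28, 53 and 17 and were 28 to 34, 58 to 85 and 17 to 37 with 1 library left out, an alternative added after the data were seen. The cause of these moves was not tested, but each fit without a library has fewer samples.

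With the replicate block the totals were 12, 7 and 1; the 3 H3K4me3 calls lost were those of Dusp5 (adjusted p = 0.0711, 0.0718 and 0.0719). Correlations of the replicate differences between groups ran from -0.126 to 0.278 for H3K27ac, -0.119 to 0.0705 for H3K4me1 and -0.231 to 0.103 for H3K4me3. They cannot decide whether the numbers pair the samples, and pairing across marks was not examined. With random peaks dropped the sign turned for Dusp1 (-0.17) and Dusp2 (-0.0021) in Npm1c, Dusp5 in DM (-0.024) and Dusp1 in the interaction (0.051). Of 577 alternative values of 28 single calls, interaction included, 376 kept the call, 197 kept the direction only and 4 turned. Centring kept 14 of 28.

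Counts over all genes moved more. H3K27ac calls in Npm1c numbered 2413 and ranged from 5 to 5022, in DM 1770 (214 to 3075), in neutrophils 4967 (1970 to 6155) and in DM against Npm1c 4623 (1275 to 6633). Centring moved the share of calls that rose by over 10 percentage points in most comparisons. For H3K27ac it went from 8.89% to 45.9% in DM against Npm1c, 36.3% to 49.5% in neutrophils, 78.6% to 61.9% in Flt3-ITD, 25.4% to 44.5% in DM against Flt3-ITD and 2.57% to 34.7% for the interaction. For H3K4me1 it went from 10.5% to 41.6% in DM, 20.1% to 31.8% in neutrophils, 31.1% to 46.6% in Flt3-ITD, 20.4% to 36.5% in DM against Npm1c, 10.3% to 25.9% against Flt3-ITD and 25.9% to 14.0% for the interaction. For H3K4me3 it went from 70.6% to 10.0% in Npm1c, 83.4% to 34.4% in Flt3-ITD, 54.7% to 44.1% in DM, 40.5% to 60.8% in neutrophils, 46.7% to 72.7% in DM against Npm1c, 35.9% to 47.1% against Flt3-ITD and 34.1% to 72.3% for the interaction.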
